A study of Brassica napus with 12 samples.

Results

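Chromosome C03 of Brassica napus was described as a unit through all genes whose identifier places them on it: 4069 of the 52962 identifiers counted in 12 RNA-seq libraries of roots and leaves. C03 was chosen by its measured levels, because earlier work on the same libraries had found its genes lower with silicon and raised or lowered as a block in single replicates, so the levels and the silicon values below are a description and carry no test of their own. The comparison of leaf with root did not enter that choice and was tested. All plants were wild type of the variety Citizzen, raised in tanks of nutrient solution. The Si groups (root Si, leaf Si) were given 1.7 mM Si, as sodium metasilicate, over 1 week that began when leaf 4 emerged. The no-Si groups (root no Si, leaf no Si) received 3.4 mM NaCl over the same week to match the sodium, so the chloride given to them alone and the absence of Si cannot be told apart. Each of the 4 groups held 3 libraries. The labels call the replicates biological, but do not say how many plants made up a library or whether a root and a leaf library that share a number share their plants. P-values therefore measure the spread between these libraries, which may be in part technical. The labelled planting date was 12 February for all no-Si libraries and for leaf Si replicate 3, and 21 March for the other Si libraries. In roots this date and the Si supply therefore cannot be told apart.

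Brassica napus is an allotetraploid: its A subgenome descends from a relative of Brassica rapa and its C subgenome from a relative of Brassica oleracea. Most genes therefore have a counterpart, called a homoeologue, on the other subgenome, and A03 and C03 carry matching stretches over much of their length. In this species a stretch of one chromosome can be replaced by its counterpart, a homoeologous exchange, and plants of one variety can differ in the copy number of a chromosome or of part of it. In RNA such differences can appear as runs of neighbouring genes that are raised or lowered together, with an edge at a fixed gene. The identifiers used here carry a chromosome and a running number but no gene name, so neither the roles of single genes nor marker genes of root and leaf could be looked up.

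Gene counts per library ran from 14429867 to 21792206, and C03 genes took 7.66% to 9.00% of them. Between 3524 and 3632 of the 4069 C03 genes had at least 1 read in a library. The identifiers were checked against an independent gene table of another B. napus assembly, Da-Ae, that uses the same numbering for some genes. Of 178 C03 identifiers found there, 157 lay on C3 and 21 elsewhere. Up to BnaC03g70460D the numbering followed the order along the chromosome in 131 of 133 steps between matched genes. From BnaC03g71540D it started again near the beginning of the chromosome, with 17 of 22 steps ascending. The 3674 identifiers of the first run were therefore used for break points and sections, and the 335 of the second run were read separately. The 10 stretches of the organ comparison below were cut from all 4069 identifiers.

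The level of C03 in each library was the median, over its genes, of the log2 CPM (the count of a gene scaled to the size of its library) minus the median of the other 5 libraries of the same organ. It was taken over the 2821 C03 genes with a mean of at least 1 CPM in both organs, here called expressed genes. By this median no-Si replicate 3 stood highest in both organs, at 0.17 in root and 0.15 in leaf, which is 1.12-fold and 1.11-fold the level of the other libraries. No-Si replicate 1 followed at 0.08 in root and 0.05 in leaf. As a log2 ratio of summed CPM, which weights genes by their level, the leaf value was −0.03 and the root value 0.18. The genes outside C03 were lower still in that leaf library, with summed CPM 0.935-fold the other leaves against 0.979-fold on C03. In root the order of these replicates turned by summed CPM, at 1.133-fold the other roots in no-Si replicate 1 and 1.124-fold in no-Si replicate 3. The genes outside C03 stood at 1.029-fold and 0.976-fold in these 2 libraries. No-Si replicate 2 was at −0.03 in both organs. The Si roots were at −0.07, −0.04 and −0.07, and the Si leaves at −0.05 in all 3 replicates. By summed CPM, leaf Si replicate 1 was at 0.03 and no-Si replicate 2 at 0.06 in leaf and 0.05 in root. As ratios these are 1.021, 1.041 and 1.036, against 1.061, 1.068 and 1.019 for the genes outside C03. Group means were 0.07 ± 0.10 in no-Si roots and −0.06 ± 0.02 in Si roots, and 0.06 ± 0.09 in no-Si leaves and −0.05 ± 0.002 in Si leaves (SD, n = 3). By this median the groups did not overlap in either organ. No-Si replicate 2 lay only just above the nearest Si replicate in each, and the spread was wider in the no-Si than in the Si group. By summed CPM the root groups did not overlap but the leaf groups did. Leaf no-Si replicate 1, at 0.979-fold, then lay below leaf Si replicate 1, at 1.021-fold. In bulk tissue, fewer cells of a type and less RNA per cell cannot be told apart.

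Among the 19 chromosomes and by the same median, C03 had the highest level in no-Si replicate 3 in root and in leaf. The next highest chromosome in those libraries was C09, at 0.08 and 0.07. In no-Si replicate 1 C03 came after C01, which stood at 0.10 in root and 0.07 in leaf. In Si replicates 1 and 3 C03 had the lowest level of all 19 chromosomes in both organs. In Si replicate 2 it was lowest in leaf and above C09 alone in root. The genes outside C03, pooled over chromosomes, had medians between −0.02 and 0.02 in all 12 libraries. Single chromosomes lay outside that range. In no-Si replicate 1, C07 was at −0.13 in root and −0.16 in leaf, and A01 at −0.08 and −0.11. C09 was at −0.08 in root and −0.13 in leaf in no-Si replicate 2, and at 0.11 in both organs in Si replicate 3. In these libraries each of them was shifted more than C03, so shifts of this size were not limited to C03.

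A level relative to the other 5 libraries is lowered by each of those 5 that is raised. With only no-Si replicate 2, Si replicate 2 and Si replicate 3 as the reference, a choice made after the values were seen, no-Si replicate 3 stood at 0.18 in root and 0.16 in leaf and no-Si replicate 1 at 0.11 and 0.08. All other libraries then lay between −0.02 and 0.01. On that scale no-Si replicates 1 and 3 stood above the Si replicates, and no-Si replicate 2 was level with them. No-Si replicate 2, Si replicate 2 and Si replicate 3 make up the reference, so that they lie level follows in part from the choice.

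Along the chromosome, no-Si replicate 1 was raised over a first part and not over the rest, with an edge at the same place in both organs. Break points were sought in each library separately by fitting steps to the gene-ordered differences. The root library had a single break at BnaC03g39240D and the leaf library a single break at BnaC03g39200D, 2 expressed genes apart among 2543. At a break penalty of 20 in place of 10 the leaf break was not found. Before the break the median was 0.16 in root (quartiles 0.02 and 0.32, 1508 genes) and 0.13 in leaf (quartiles −0.13 and 0.39, 1506 genes). After it the median was −0.04 in root (1035 genes) and −0.06 in leaf (1037 genes). The 100 expressed genes just before BnaC03g39200D had medians of 0.19 in root and 0.09 in leaf, and the 100 from it onward −0.03 and −0.01. For the former genes the other replicates reached up to 0.13 in root and 0.12 in leaf, so in leaf no-Si replicate 1 was not the highest just before the break. The edge showed in the medians of many genes and not in each of them. The first gene after the leaf break, BnaC03g39200D, was at 28.4 CPM in root no-Si replicate 1 against 21.2 to 24.1 CPM in the other roots, and at 9.80 CPM in the leaf library against 10.8 to 14.3 CPM in the other leaves.

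No-Si replicate 3 had no break in either organ. Its median was 0.15 in root and 0.14 in leaf before the place where no-Si replicate 1 broke, and 0.20 and 0.17 after it. Against the reference of 3 replicates, the first part was at 0.19 in root and 0.15 in leaf in no-Si replicate 1 and at 0.17 and 0.16 in no-Si replicate 3, so the 2 replicates stood within 0.02 of each other there. Over the second part, no-Si replicate 1 was at −0.01 and −0.04 and no-Si replicate 3 at 0.20 and 0.17.

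The second run of identifiers was set against the same edge. Its genes played no part in placing the break, but they belong to C03, which was chosen on levels in these libraries. Its order along the chromosome rests on 23 matched genes. Its 79 expressed genes up to BnaC03g73700D have their matched neighbours before the break, and its 133 from BnaC03g74530D onward after it. In no-Si replicate 1 the former stood at 0.09 in root and 0.27 in leaf. The latter stood at −0.01 in root and −0.07 in leaf. In no-Si replicate 3 the former were at 0.18 in root and 0.08 in leaf, and the latter at 0.14 and 0.20. By these medians both organs of no-Si replicate 1 were lower after the edge than before it, as in the first run. By summed CPM this held in root, at 1.15 before and 1.01 after it, but turned in leaf, where the ratio to the other leaves was 0.837 before the edge and 0.946 after it, against 1.075 and 0.897 in the first run. These are the same libraries, so this compares genes and not samples.

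**Figure D1:**
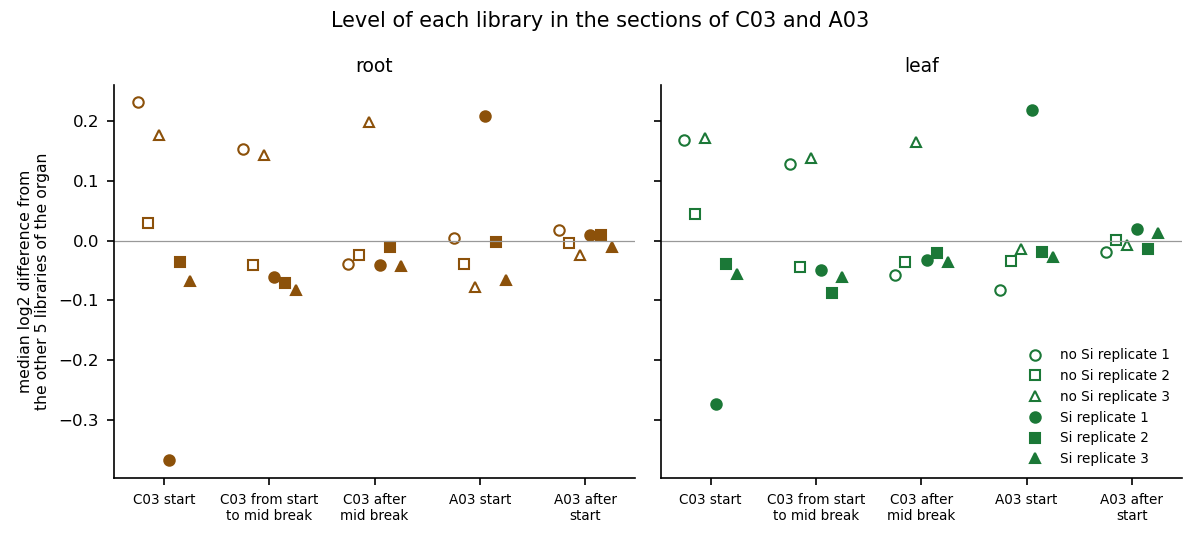
Median log2 difference from the other 5 libraries of the organ (vertical axis) for sections of C03 and A03 (horizontal axis), 1 point per library, in root (left) and leaf (right); open symbols are no-Si, filled symbols Si, and the shape gives the replicate. C03 start is before BnaC03g04790D and the mid break lies at BnaC03g39200D. Si replicate 1 lies lowest at the start of C03 and highest at the start of A03 in both organs.

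Si replicate 1 had a lowered start of C03 and a raised start of A03. The root library broke at BnaC03g04580D and the leaf library at BnaC03g04790D, 9 expressed genes apart; here too the leaf break was not found at a penalty of 20. The 188 expressed genes before the root break had a median of −0.38 (quartiles −0.53 and −0.28), 0.77-fold the other roots. The 197 before the leaf break had a median of −0.27 (quartiles −0.48 and −0.06), 0.83-fold the other leaves. Beyond the break the medians were −0.06 in root and −0.04 in leaf. Of the 197 genes, 3.55% lay above the other roots and 19.8% above the other leaves, and 77.2% lay below in both organs, against 24.3% of the genes outside C03 in the same pair of libraries. The same genes had medians between −0.07 and 0.04 in no-Si replicate 2, Si replicate 2 and Si replicate 3, and between 0.17 and 0.23 in no-Si replicates 1 and 3. Against the reference of 3 replicates, the start of C03 in Si replicate 1 was at −0.32 in root and −0.24 in leaf.

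On A03 the root library of Si replicate 1 broke at BnaA03g03110D. Its 145 expressed genes before the break had a median of 0.21 (1.16-fold the other roots) and the 2096 after it 0.01. No break was found on A03 in the leaf library, but the mean of root and leaf broke at BnaA03g03070D, and the 143 genes before that place were at 0.21 in root and 0.22 in leaf, against 0.01 and 0.02 for the rest of A03. Of these 143 genes, 70.6% lay above the other libraries in both organs, against 26.7% of the genes outside C03 in the same pair of libraries. No other library had a break on A03. Over all of A03, no-Si replicate 3 was at −0.03 in root and −0.01 in leaf, and no-Si replicate 1 at 0.01 and −0.03. Such a median can miss a shifted section: Si replicate 1 was at only 0.03 in both organs over all of A03. At the start of A03, no-Si replicate 3 was at −0.08 in root and −0.01 in leaf, and no-Si replicate 1 at 0.005 and −0.08. A part of A03 matching the raised first part of C03 was not measured.

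**Figure D2:**
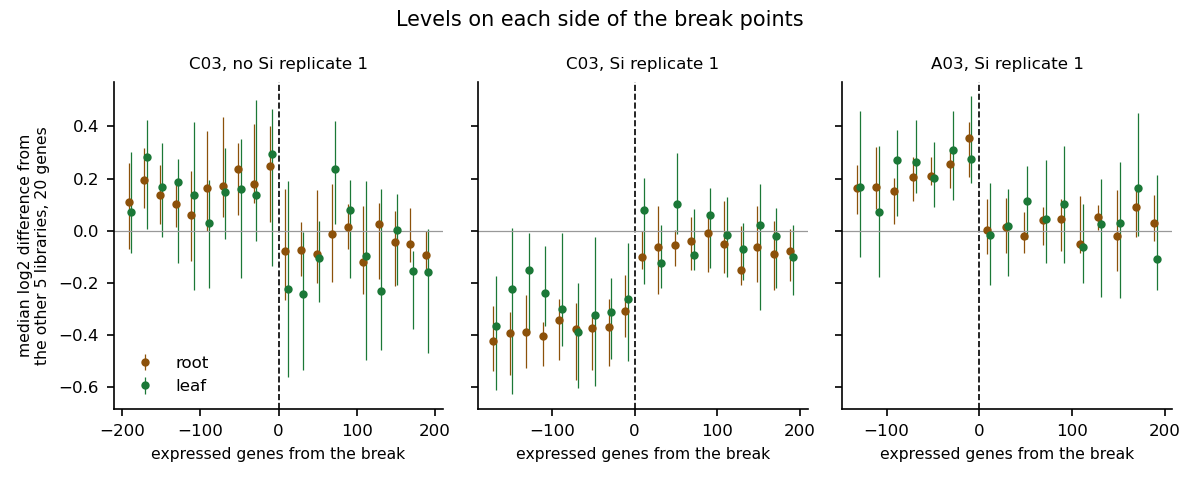
Median log2 difference from the other 5 libraries of the organ (vertical axis) in successive sets of 20 expressed genes, by distance in expressed genes from the break (dashed line), with bars from the lower to the upper quartile, for root (brown) and leaf (green). The level falls at the break of C03 in no-Si replicate 1, rises at that of C03 in Si replicate 1 and falls at that of A03 in Si replicate 1.

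The breaks of Si replicate 1 fell within a short stretch of neighbouring genes. In Si replicate 1 the 100 expressed genes before BnaC03g04790D had medians of −0.37 in root and −0.31 in leaf, and the 100 from it onward −0.05 and −0.0008. In the other replicates the medians of the former genes lay between −0.07 and 0.24 in root and between −0.08 and 0.22 in leaf. On A03 the 100 expressed genes before the break were at 0.21 in root and 0.26 in leaf, and the 100 after it at 0.01 and 0.07.

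At single genes the shifts were small against the differences between libraries. BnaC03g02050D was the gene of the start section with the highest level in the organ where it was lower (chosen after its values were seen). It showed the lowered start of Si replicate 1 in both organs. Its level in no-Si roots was 171.9, 174.3 and 186.7 CPM, and in Si roots 135.5, 146.6 and 145.8 CPM. In no-Si leaves it was 198.3, 162.6 and 159.6 CPM, and in Si leaves 129.3, 167.1 and 170.6 CPM. Si replicate 1 was the lowest library in each organ, and no-Si replicate 3 was the highest root but not a high leaf. BnaC03g44340D, chosen by the same rule after the break of no-Si replicate 1, was raised in both organs of no-Si replicate 3. Its log2 difference from the other 5 libraries there was 0.134 in root and 0.145 in leaf, though that replicate was its highest in neither organ. BnaC03g08690D and BnaC03g77220D, chosen alike, did not follow their sections in both organs. BnaC03g77220D was at −0.032 in root no-Si replicate 3. BnaC03g08690D, before the break of no-Si replicate 1, was at 357.1 CPM in that leaf library, against up to 432.1 CPM. In no-Si replicate 3, BnaC03g44340D and BnaC03g77220D were at 428.9 and 275.0 CPM in root and 1253 and 299.6 CPM in leaf. Other libraries reached 470.7 and 325.9 CPM in root and 1306 and 388.4 CPM in leaf.

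The shift was shared by many genes rather than carried by a few. In no-Si replicate 3, 77.9% of the expressed C03 genes lay above the other roots and 73.8% above the other leaves, and 57.1% lay above in both organs, against 22.3% of the genes outside C03 in the same pair of libraries. In no-Si replicate 1, 48.4% of genes before the break and 18.4% of those after it lay above in both organs, against 22.1% outside C03. Which genes were raised most in root said little about leaf. Over the 2821 C03 genes of no-Si replicate 3 the root and leaf differences had a Pearson r of −0.04, and over the 197 start genes of Si replicate 1 it was 0.09. These are descriptions across genes of 2 libraries that share their C03 genes, and genes are not independent replicates.

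To see whether the shift depended on expression level, the genes of each section were split into 5 classes of equal size by their mean CPM over all 12 libraries. In no-Si replicate 3 the 5 medians lay between 0.15 and 0.18 in root and between 0.15 and 0.17 in leaf. The class below 5.82 CPM was at 0.18 in root and 0.16 in leaf, and that above 33.6 CPM at 0.15 in both. In no-Si replicate 1 before the break they ran from 0.12 to 0.18 in root with no order by class, the lowest class being the lowest. In leaf they fell from 0.21 in the lowest class to 0.07 in the highest. The genes outside C03 in that leaf library fell as well, from 0.03 in the lowest class to −0.09 in the highest, so the distance of C03 from other genes was 0.18 in the lowest class and 0.16 in the highest. At the start of C03 in Si replicate 1 the medians lay between −0.42 and −0.35 in root and between −0.39 and −0.20 in leaf, with no order by class. At the start of A03 they were 0.16 in the lowest and 0.24 in the highest class in root, and 0.17 and 0.32 in leaf, over classes of 28 or 29 genes. The genes outside C03 in the same libraries rose as well, from −0.02 to 0.01 in root and from −0.04 to 0.05 in leaf. The summed CPM ratio at the start of A03 lay between 1.14 and 1.165 in root, and was 1.14 in the lowest and 1.25 in the highest class in leaf. For the genes outside C03 in that leaf library it rose as well, from 0.970 in the lowest to 1.085 in the highest class. The ratio of summed CPM to the other libraries, which follows the abundant genes, gave 1.11 to 1.14 in root and 1.11 to 1.15 in leaf over the classes of no-Si replicate 3, and 0.749 to 0.803 and 0.784 to 0.818 at the start of C03 in Si replicate 1. Before the break of no-Si replicate 1 it ran from 1.11 in the lowest to 1.25 in the highest class in root, and in leaf it was 1.20 in the lowest and 1.02 in the highest. The genes outside C03 fell in that leaf library as well, from 1.056 in the lowest to 0.898 in the highest class. In that root library they were at 1.008 and 1.041.

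**Figure D3:**
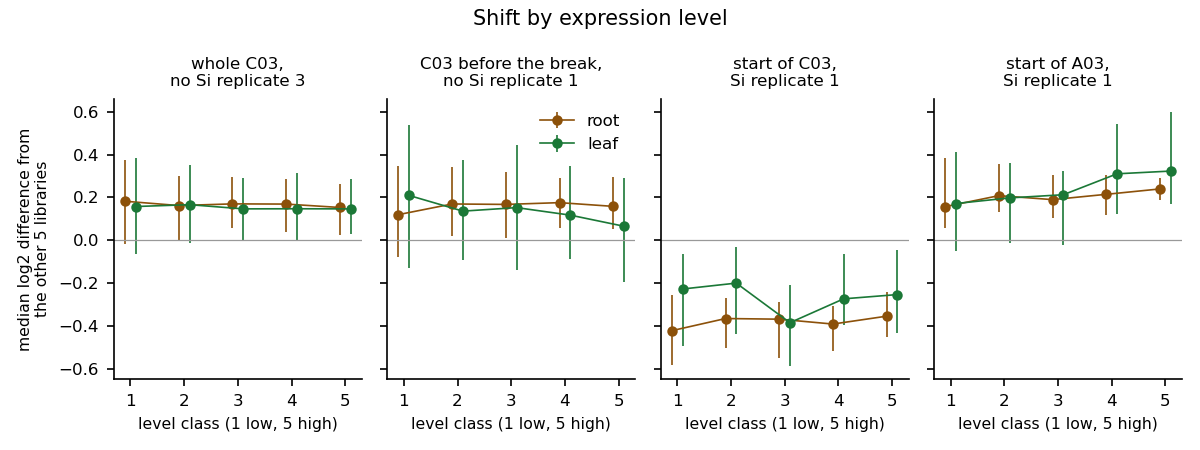
Median log2 difference from the other 5 libraries of the organ (vertical axis) in 5 classes of equal gene number by mean CPM (horizontal axis), with bars from the lower to the upper quartile, in root (brown) and leaf (green). In no-Si replicate 3 all medians lie between 0.15 and 0.18, and at the start of C03 in Si replicate 1 they all lie below −0.2.

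Genes that differed between the organs shifted as well. In no-Si replicate 3 the C03 genes higher in leaf, higher in root and neither had medians of 0.17, 0.13 and 0.17 in root, and of 0.18, 0.26 and 0.13 in leaf. In no-Si replicate 1 before the break they were 0.14, 0.22 and 0.16 in root, and 0.18, 0.11 and 0.12 in leaf. At the start of C03 in Si replicate 1 they were −0.35, −0.31 and −0.39 in root, and −0.24, −0.41 and −0.27 in leaf. No class was at 0 in any of these sections, and the order of the classes differed between the libraries.

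The comparison of leaf with root asked whether C03 genes favour an organ. Of the 3479 C03 genes tested, 790 (22.7%) were higher in leaf and 781 (22.4%) higher in root, at an edgeR adjusted p under 0.05 over all genes and a log2 difference of at least 1. Over all 45222 genes tested the shares were 23.5% and 23.8%, so C03 lay close to the background in both directions. The other 18 chromosomes had 22.2% to 25.3% of their genes higher in leaf and 20.8% to 26.1% higher in root, and C03 took place 15 and 16 of 19 from the top. The median log2 difference between leaf and root was 0.003 on C03 and −0.01 over all genes. With only the 6 libraries of no-Si replicate 2, Si replicate 2 and Si replicate 3, the reference used above, 802 C03 genes were higher in leaf and 805 higher in root.

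The organ shares varied along the identifiers without a trend. The stretches were cut from all 4069 identifiers. Stretch 10 therefore held mostly identifiers after the first run and is not a single stretch of the chromosome. In 10 stretches of 406 or 407 identifiers, the share higher in leaf ran from 20.8% (stretch 1) to 24.9% (stretch 9). The share higher in root ran from 17.2% (stretch 8) to 27.6% (stretch 5), with 27.4% in stretch 3. Genes before and after the break of no-Si replicate 1 had 22.5% and 22.9% higher in leaf, and 23.2% and 21.7% higher in root. At the start of C03 the shares were 23.2% and 20.5% of 220 genes. No test between stretches was made.

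**Figure D4:**
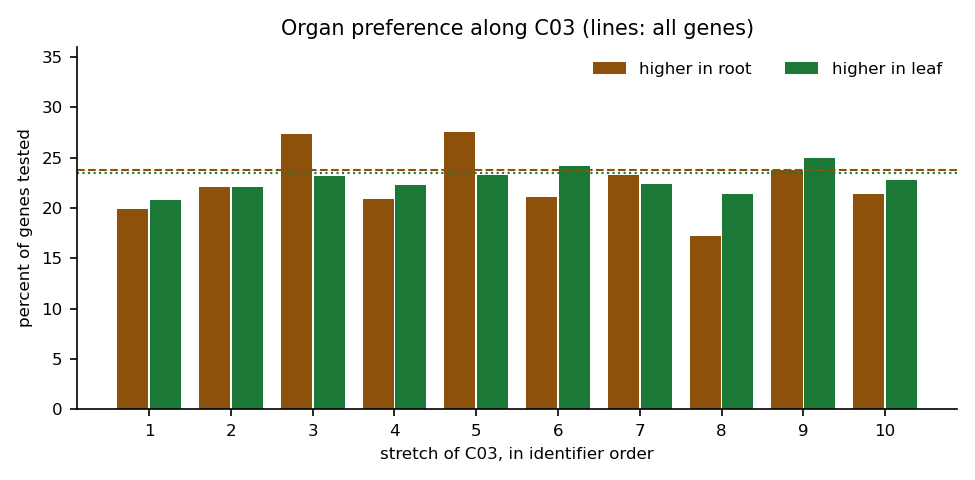
Percent of the C03 genes tested (vertical axis, from 0) that were higher in root (brown) or in leaf (green) in 10 stretches of equal identifier number (horizontal axis), at an adjusted p under 0.05 and a log2 difference of at least 1. Stretch 10 holds mostly identifiers after the first run and is not a single stretch of the chromosome. The dashed brown and dotted green lines are the shares over all genes, 23.8% and 23.5%; the bars lie between 17.2% and 27.6%.

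The largest organ differences were of genes with few or no reads in the other organ. BnaC03g21610D had 0 counts in all 6 roots and 450, 297 and 512 counts in no-Si leaves and 254, 399 and 344 in Si leaves. Its level in leaf was 25.7 ± 6.06 CPM (SD, n = 6), at least 1141-fold higher than a floor of 3 counts over the 6 root libraries (edgeR adjusted p = 2.8e-10). BnaC03g49500D had 2 counts in the 6 roots together and 58.1 ± 18.3 CPM in leaf (SD, n = 6), a ratio of 3768 with a 95% interval of 1152 to 34374 (exact binomial, counting error only). Every leaf lay above every root for both genes.

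In the other direction, BnaC03g43340D stood at 38.2, 39.0 and 41.4 CPM in no-Si roots and at 31.8, 25.7 and 43.1 CPM in Si roots. Its 6 leaves held 3 counts together, a ratio of root to leaf of 1049 (95% interval 355 to 5042, counting error only; edgeR adjusted p = 1.1e-11). BnaC03g55880D stood at 14.8 ± 1.33 CPM in root (SD, n = 6) with 1 count in the 6 leaves, a ratio of 930.0 (95% interval 228 to 50310). No leaf of either gene reached the level of any root.

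The most abundant C03 transcripts of leaf were nearly absent from root, while those of root were also abundant in leaf. BnaC03g45180D led in leaf with 2581 to 4302 CPM (mean 3753 ± 673, SD, n = 6) and had 0.589 to 6.03 CPM in root. BnaC03g22220D followed at 2839 ± 398 CPM in leaf and 3.86 ± 1.26 CPM in root. In root BnaC03g08690D led, at 529 ± 55.9 CPM, with 386 ± 40.2 CPM in leaf, and BnaC03g57750D followed at 471 ± 99.0 CPM, with 127 ± 12.1 CPM in leaf (SD, n = 6). The leaf minus root log2 differences were 10.35 (SE 0.53), 9.53 (SE 0.31), −0.45 (SE 0.12) and −1.89 (SE 0.15) in that order, and all but BnaC03g08690D passed both limits.

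With Si, C03 genes were lower on the median in both organs, which is the contrast the chromosome was selected on. The median log2 fold change was −0.11 over 3297 genes in root and −0.10 over 3190 in leaf, against 0.003 and −0.004 over all genes. It followed the sections: −0.22 and −0.21 at the start, −0.15 and −0.14 before the break of no-Si replicate 1, and −0.06 and −0.05 after it, in root and leaf. At the start the no-Si replicates 1 and 3 were raised and Si replicate 1 was lowered, before the break no-Si replicates 1 and 3 were raised, and after it no-Si replicate 3 alone.

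No single C03 gene passed with Si by edgeR, in root (0 of 3297; 0.00235% of all genes tested) or in leaf (0 of 3190; 0.00731%). The smallest edgeR adjusted p on C03 was 0.10 in root and 0.81 in leaf. At an unadjusted p under 0.05, 379 C03 genes were lower and 46 higher in Si roots, where all genes gave 5.34% lower and 3.52% higher and C03 11.5% and 1.40%. In leaves 171 were lower and 17 higher, where all genes gave 2.71% and 1.38% and C03 5.36% and 0.533%. DESeq2 called 57 C03 genes in root (52 lower, 5 higher; 1.08% of all genes, 1.77% of C03) and 2 in leaf (0.105% of all, 0.0627% of C03). edgeR called 6 in root when no-Si replicate 3 was left out, and 1 in leaf when no-Si replicate 2 was.

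The unadjusted counts and the root median moved with single libraries. In root the 379 lower genes became 240 without Si replicate 2. The 46 higher genes became 25 when Si replicate 2 was left out, 24 when no-Si replicate 2 was, and 111 when no-Si replicate 3 was. In leaf the 171 lower genes became 112 when Si replicate 3 was left out, 324 when no-Si replicate 2 was, and 95 when no-Si replicate 3 was, and the 17 higher genes became 36 without no-Si replicate 1. The median log2 fold change in root was −0.06 with no-Si replicate 3 left out and −0.15 with no-Si replicate 2 left out.

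For the Si effect between organs, edgeR called 0 of 3479 C03 genes (0% of all genes tested). At an unadjusted p under 0.05 there were 141 C03 genes, 4.05% against 4.03% of all genes, and DESeq2 called 0 (0.0199% of all).

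The C03 genes with the smallest p in root did not pass by edgeR but were called by DESeq2. They were chosen for their small p, so that their root groups lie apart follows from the choice. BnaC03g27140D stood at 77.3, 77.2 and 75.7 CPM in no-Si roots and at 46.9, 43.9 and 46.5 CPM in Si roots, a log2 fold change of −0.75 (SE 0.09; edgeR adjusted p = 0.10, DESeq2 adjusted p = 8.4e-08). Its leaves ranged from 27.9 to 142.5 CPM with no separation of the groups. BnaC03g03670D, in the start section, stood at 47.3, 46.7 and 40.6 CPM without and at 24.3, 24.99 and 27.1 CPM with Si in root, a log2 fold change of −0.82 (SE 0.10; edgeR adjusted p = 0.10, DESeq2 adjusted p = 1.8e-06). In leaf it stood at 26.9, 22.0 and 19.1 CPM without and 15.2, 16.6 and 16.6 CPM with Si.

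Among the genes with higher values in Si roots, BnaC03g26530D stood at 1.67, 1.195 and 0.483 CPM without and 3.54, 4.27 and 4.67 CPM with Si (log2 fold change 1.88, SE 0.35; edgeR adjusted p = 0.21, DESeq2 adjusted p = 0.00033). BnaC03g60160D stood at 8.32, 7.47 and 8.74 CPM without and 11.4, 15.7 and 12.7 CPM with Si (log2 fold change 0.69, SE 0.15; edgeR adjusted p = 0.26, DESeq2 adjusted p = 0.028). Neither pair of root groups overlapped, and in leaf both did.

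In leaf, BnaC03g10190D, read almost only there, stood at 20.2, 21.2 and 41.4 CPM without and 5.08, 5.04 and 8.34 CPM with Si (log2 fold change −2.16, SE 0.34; edgeR adjusted p = 0.81). BnaC03g67640D, with 6 counts in all roots together, stood at 17.9, 18.2 and 19.9 CPM without and 33.7, 50.9 and 66.7 CPM with Si (log2 fold change 1.44, SE 0.24; edgeR adjusted p = 0.96). These are the 2 C03 genes that DESeq2 called in leaf. BnaC03g64050D had 5.56, 6.21 and 5.61 CPM without and 3.05, 2.89 and 2.66 CPM with Si, and BnaC03g22540D 10.2, 11.2 and 9.58 CPM without and 15.5, 17.8 and 15.5 CPM with Si. For these 4 genes, chosen in the same way, the leaf groups did not overlap.

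One C03 gene was on in some replicates and off in others, alike in both organs. BnaC03g71130D, which lies between the 2 runs of identifiers, had 49 and 48 counts in root no-Si replicates 1 and 2 and 13 and 21 in the leaf libraries of the same numbers. The other 8 libraries held 0 or 1 count each. Its highest leaf level, 2.01 CPM, was just over the limit of 2 CPM set for such genes, and with levels scaled within each organ it did not reach that limit.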

How the data were processed

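Poly(A)-selected, stranded paired-end libraries were sequenced, per the labels' protocols. The authors deposited whole-number counts per gene in 3 columns (either strand, forward, reverse); the reverse column was used, and unmapped, multimapping, unassigned and ambiguous reads, counted apart per the file headers (5.36% to 15.6%, 7.73% to 9.66%, 6.94% to 14.7% and 0.108% to 0.143% of a library), stayed out of all totals. The submitters' processing notes name TopHat2 and Bowtie2. Neither a genome build nor the annotation or the counting tool is given in those notes or the labels. Reads that match both A and C copies can be lost or go to the wrong copy, so levels of single copies are uncertain to that extent.

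C03 and the lists, sections and tests used here were chosen with earlier results of these data known. Leaf was compared with root over all 12 libraries, and Si against no Si in the 6 libraries of an organ, with edgeR 4.0.16 in R 4.3.3 (TMM, filterByExpr, robust quasi-likelihood fits, two-sided tests), with Benjamini-Hochberg adjustment over all genes; DESeq2 1.42.0 was an alternative. Standard errors came from the F statistic. CPM of single genes used TMM factors over all 12 libraries; levels used TMM within each organ and a prior count of 1. Break points came from least-squares partitioning of differences held within −1 and 1, with a penalty of 10 times the noise variance times the log of the gene number and at least 50 genes a segment, on the first run of identifiers, a choice made after the order was checked. The tests and the break search were tested on simulated data. Replicates differed beyond sampling noise (chi-square per degree of freedom 5.55 to 40.6), so each library was a separate sample. Intervals and the floor of 3 counts cover counting error only.

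Genes were named by rule: the 2 called genes each way with the largest organ difference and a mean of at least 10 CPM in the higher organ, the 2 each way with the smallest p for Si in each organ, the 2 with the highest mean in each organ, the genes at breaks, and genes below 1/30 of their highest CPM in a replicate and above 1/6 in at least 2 others in both organs. Deviations from the group means correlated between root and leaf of a treatment and number at 0.04 to 0.46, not all over 0.1, so the main tests did not take the numbers as pairs. The descriptions did set root and leaf of a number side by side. Section limits on C03 and A03 came from breaks in their mean, and shares in both organs were counted by number. Other scalings, filters, priors, strands, blocks, break settings and left-out libraries were run as alternatives.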

Additional observations from a re-analysis of the deposited data

Results flagged for a closer look

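The forward column, which holds reads from the strand opposite to the annotated gene and enters no comparison above, held 0.329% to 0.661% of the stranded C03 counts in a library. For 30 of the 4069 C03 genes it held more reads than the reverse column, with at least 100 forward reads over the 12 libraries. The forward share over all genes was 0.355% to 0.723% in a library.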

How the results depend on the processing

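At an adjusted p under 0.01 and a log2 difference of at least 2, 480 C03 genes were higher in leaf and 460 in root. The share of a stretch then fell to 11.9% (leaf, lowest), 8.43% (root, lowest) and 17.3% (root, highest). All other alternatives kept the organ counts and shares within 1.5 times.

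For Si, DESeq2 called 57 C03 genes in root and 2 in leaf. Leaving out single libraries gave 0 to 6 calls in root and 0 to 1 in leaf, 240 to 377 lower and 24 to 111 higher genes at unadjusted p in root, and 95 to 324 lower and 12 to 36 higher in leaf. A planting date term in leaf gave 66 lower and 9 higher. With the number as a replicate block, 11 leaf genes were higher at unadjusted p, and no other count of calls moved by over 1.5 times. The main tests did not take the numbers as pairs. Of 12 libraries, 9 correlated best with the library of their own number in the other organ, a hint from the data and not the design.

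The level of a library moved by more than the spread within groups in 8 cases, all with the log2 ratio of summed CPM, which weights genes by their level. Whole C03 then stood at −0.0305, 0.0582, 0.0305 and −0.124 in leaf no-Si replicates 1 and 2 and leaf Si replicates 1 and 2, and at 0.181 and 0.0509 in root no-Si replicates 1 and 2. Summed CPM of the genes outside C03 moved as well. Its ratio to the other libraries was 0.935, 1.068, 1.061 and 0.929 in these leaves and 1.029 and 1.019 in these roots, in that order. The part before the break stood at 0.29 in root no-Si replicate 1, and the part after it at −0.16 in the leaf library. A break penalty of 5 added 1 break in root Si replicate 2, and one of 20 left 0 breaks in leaf no-Si replicate 1 and 0 in leaf Si replicate 1. The breaks found in root stayed within 50 expressed genes under each setting run. Shifts by expression class moved by less than that spread in all 48 cases. The cause of these changes was not tested. Genes under 1 CPM in either organ carried no level here.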
